A study of Homo sapiens with 24 samples.

Results

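This section describes the super-enhancers around 9 genes of the histone deacetylase and BCL6 corepressor machinery in OCI-Ly7, a human cell line established from a GCB-DLBCL, the germinal center type of diffuse large B-cell lymphoma. The genes were HDAC1, HDAC3, HDAC4, HDAC5, HDAC7, HDAC9, NCOR1, TBL1XR1 and SIN3A, out of 19970 protein-coding genes of chromosomes 1 to 22 and X. They were grouped by gene function. Like the gene lists counted further on, they were chosen with earlier results of these data known, so their counts are descriptions only. Super-enhancers are stretches of closely spaced enhancers whose summed H3K27ac, the acetylation of histone H3 found at active enhancers and promoters, exceeds that of most others. A gene was counted as having one when a deposited region overlapped its GENCODE gene body extended by 50 kb on each side. In all, 11 of the 2615 deposited regions met this for the 9 genes.

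CUT&RUN, in which an antibody tethers a nuclease to a chromatin mark, was run on H3K27ac, H3K4me1 and H3K4me3 in 24 samples of isogenic OCI-Ly7 clones, each grown from a single cell after CRISPR editing. The genotypes were non-edited control (WT), homozygous knock-in of CREBBP R1446C, which inactivates the acetyltransferase (C, labelled C_hom_KI), homozygous KMT2D knockout (K, labelled K_hom_KO) and both lesions (CK, labelled CK_hom_KI_KO). Each mark and genotype had 2 replicates, and the labels do not say whether these were separate clones or cultures. The table covers H3K27ac in WT alone, with the 2 libraries pooled into 1 signal column, so the effect of C, K or CK was not analysed here. With 1 pooled value per region, replicate errors are unknown and no test between samples was possible. The signal is a relative value that the ROSE program sums over a region, and regions entered the table above a cutoff of 10617. The table gives no reads per library, so depth is unknown and no counting interval can be given. The rounding of the deposited values moves a signal of these 11 regions by at most 0.034% of its value. As a check of cell type by marker genes, 6 of 8 B-cell genes had a region within 50 kb, against 1 of 8 T-cell genes (CD28) and 1 of 8 myeloid genes (CSF1R).

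Histone deacetylases remove the acetyl groups that CREBBP and its relatives place, and they act as subunits of corepressor complexes that DNA-binding repressors recruit. BCL6, the master repressor of germinal center B cells, recruits NCoR corepressors, which carry HDAC3 and the WD40-repeat subunit TBL1XR1. HDAC1 works within the SIN3, NuRD and CoREST complexes, and SIN3A is the scaffold of the first of these. The class IIa enzymes HDAC4, HDAC5, HDAC7 and HDAC9 have little deacetylase activity of their own, bind MEF2 transcription factors and shuttle between nucleus and cytoplasm. A region near a gene is described here by position alone, and its contact with the gene was not measured.

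The sequence below shows what a region is made of at its edge, and promoters that fall between regions are shown further on. ROSE starts and ends a region at one of its constituent enhancers, so each edge window lies over a constituent. The central 300 bases of a window were read from hg38, plus strand. The window shown was picked after the sequences had been seen, as the edge with a match to TTCNNNGAA, a pattern bound by STAT proteins and BCL6. Capitals mark matches to 8 sets of letters on either strand: TTCNNNGAA and its BCL6 subset TTCCTNGAA, MEF2 (CTATTTNTA), ETS and PU.1 (GAGGAAGT), the octamer (ATGCAAAT), RUNX (TGTGGTT), AP-1 (TGANTCA), and TAATCCCAG, which belongs to the Alu repeat.
NCOR1, end of the rank 1337 region, chr17:16268083-16268382, intron of PIGL: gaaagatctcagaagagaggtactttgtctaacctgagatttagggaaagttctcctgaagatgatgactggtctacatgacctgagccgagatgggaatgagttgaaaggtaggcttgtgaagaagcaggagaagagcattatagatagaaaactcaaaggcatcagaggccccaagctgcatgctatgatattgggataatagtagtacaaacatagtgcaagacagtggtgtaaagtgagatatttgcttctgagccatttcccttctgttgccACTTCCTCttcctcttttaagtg

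Over all 22 edge windows of the 11 regions, TAATCCCAG was found in 7 (31.8%), against 12.0% of the 5230 edge windows of the whole table. This search was added after the sequences had been seen, and whether repeated sequence moved the peak calls was not tested. The NCOR1 window held GAGGAAGT on the minus strand, and its match to TTCNNNGAA lay outside the bases shown. Over the 22 windows, TTCNNNGAA was found in 1 (10.3% of all edge windows), TTCCTNGAA in 0 (2.18%), CTATTTNTA in 0 (1.89%), GAGGAAGT in 1 (3.35%), ATGCAAAT in 0 (2.43%), TGTGGTT in 3 (7.95%) and TGANTCA in 2 (11.6%). A match is a description of letters and not a binding site. The median GC content of the 22 windows was 46.1%, against 49.4% over all edge windows.

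Of the 9 genes, 8 had a super-enhancer within 50 kb, against a background of 30.7% of all protein-coding genes. HDAC5 was the exception. For 6 of the 9 (HDAC1, HDAC4, HDAC9, NCOR1, TBL1XR1 and SIN3A) a region lay over the gene body itself, which was so for 17.3% of all protein-coding genes. The background varied with gene length: 26.7% of genes under 25 kb, 35.1% of those of 25 to 50 kb, 35.2% of those of 50 to 100 kb, 37.8% of those of 100 to 200 kb and 25.9% of those of 200 kb or more had a region within 50 kb. The 3 longest members, TBL1XR1, HDAC4 and HDAC9, fell in the longest class, and all 3 had a region. NCOR1 fell in the class of 100 to 200 kb, HDAC7 and SIN3A in that of 50 to 100 kb, HDAC1 and HDAC5 in that of 25 to 50 kb, and HDAC3, the shortest at 16 kb, in the class under 25 kb.

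**Figure D1:**
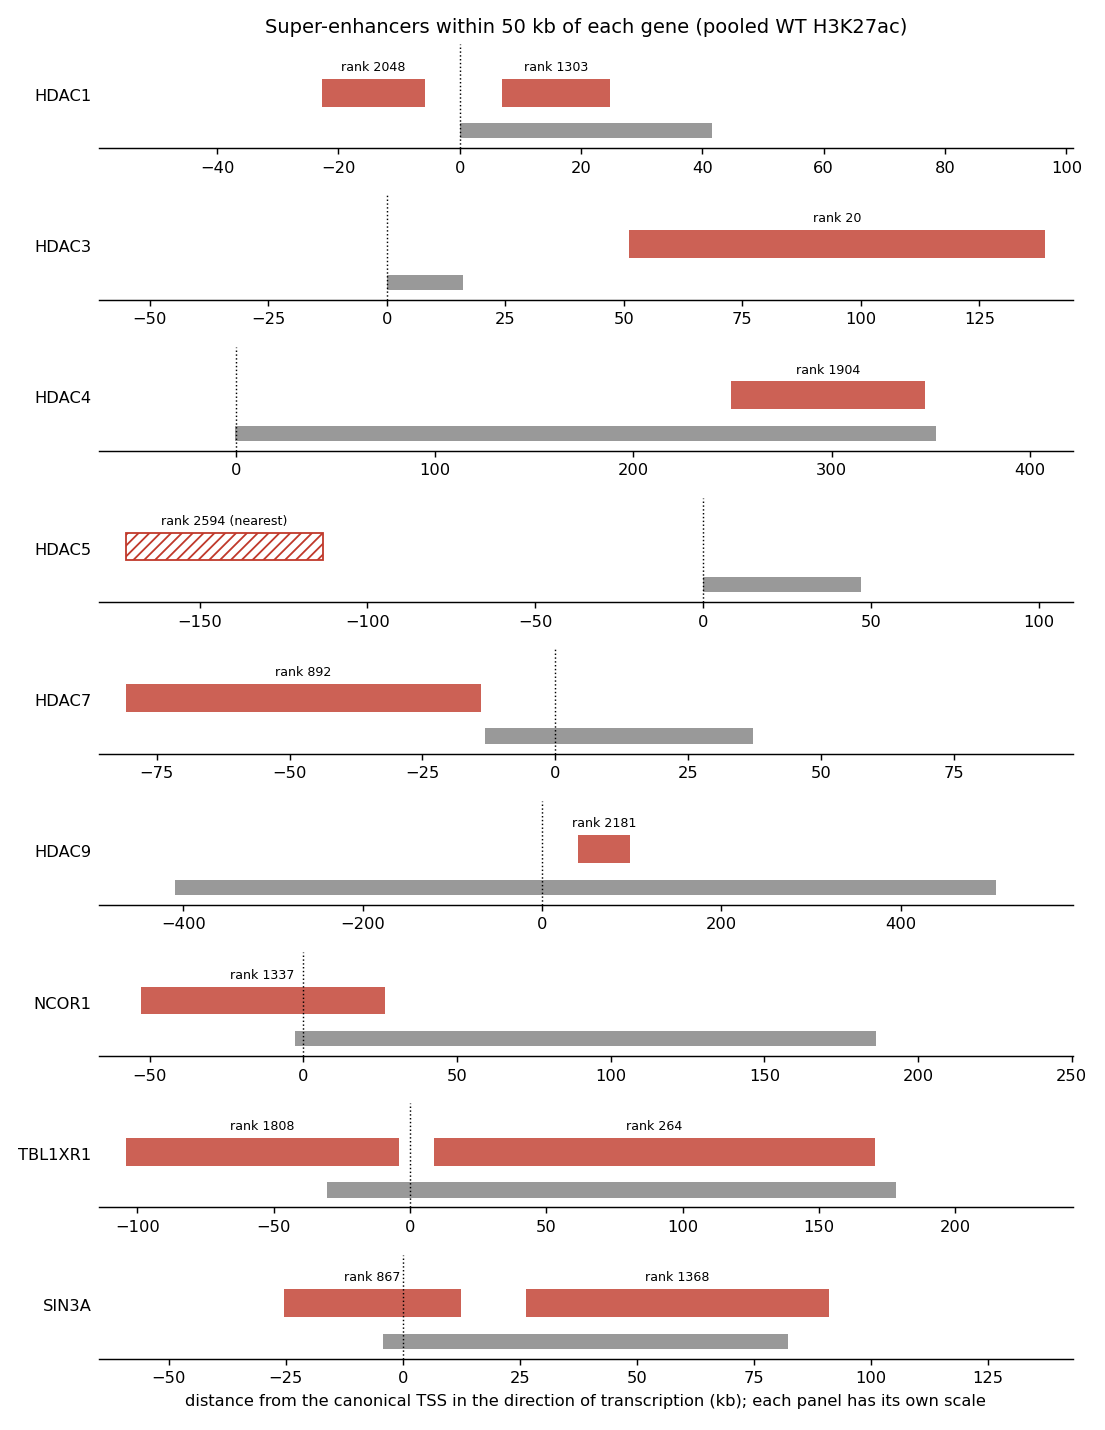
Position of the super-enhancers (red bars, with their rank by signal) and the gene body (grey bars) at each of the 9 genes, on an axis of distance in kb from the canonical start site, marked by a dotted line, in the direction of transcription. HDAC1 and TBL1XR1 have a region on each side of a start site left free, NCOR1 and SIN3A have a region over it, and for HDAC5 the hatched bar is the nearest region, 113 kb away.

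Ranks of the 11 regions ran from 20 to 2181 with a median of 1337, against a middle rank of 1308 in the table. Their median signal was 19378 and that of all 2615 regions 19736, and 5 of the 11 lay above the latter. HDAC3 had the only one among the 262 regions with the highest signal. By signal, then, the 11 regions were spread through the table with their middle close to that of all regions. Signal per bp, the signal divided by length, ran from 0.147 over HDAC4 to 1.19 near HDAC3, with a median of 0.294 against 0.343 over the table. By this measure 3 of the 11 were among the 262 highest: the region near HDAC3 and both near HDAC1. Signal per bp still depends on length here. Regions entered by summed signal, so a short region had to be denser than a long one to be listed.

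**Figure D2:**
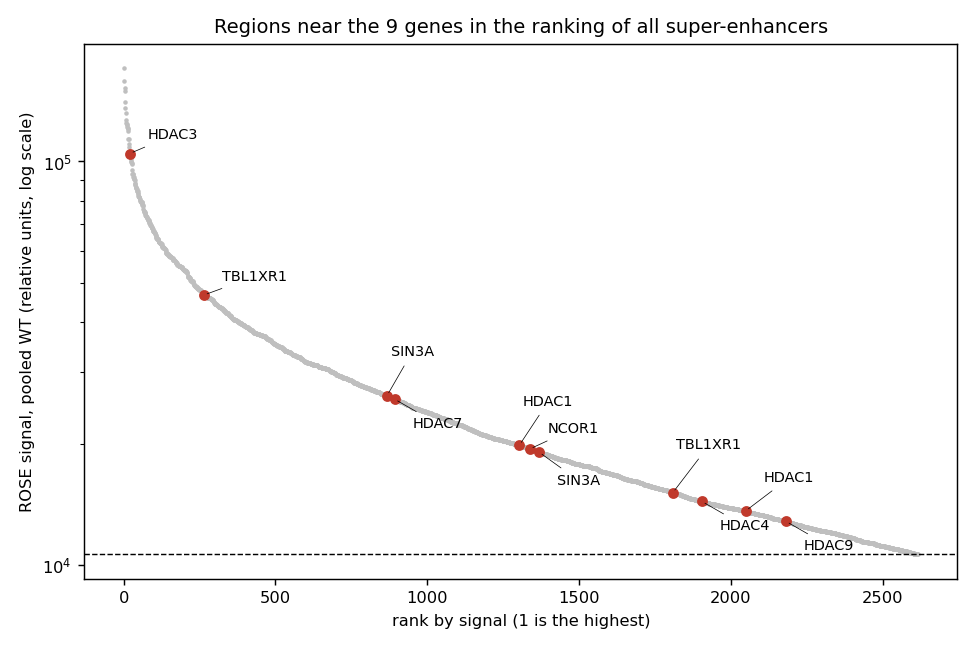
ROSE signal of the pooled WT libraries (log scale, relative units) against rank for all 2615 regions (grey), with the 11 regions near the 9 genes in red and the cutoff as a dashed line. The region near HDAC3 sits at rank 20, the longer region of TBL1XR1 at rank 264, and the other 9 between ranks 867 and 2181.

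Among the 11 regions, the 3 highest values of signal per bp were at those near the class I genes HDAC3 and HDAC1. Only the stronger region of HDAC1 overlapped either gene. HDAC3 (ENSG00000171720.10, chromosome 5, 141620876 to 141636849), the catalytic subunit of NCoR complexes, had 1 region at 141497897 to 141585742. Its signal of 104632 was 9.86 times the cutoff, spread over 87.8 kb and 21 constituents. The region did not touch HDAC3. It began 35.1 kb past the 3′ end of the gene, too far for an extension of 25 kb, and it lay over DIAPH1, an actin-nucleating formin, and the 3′ part of the γ-protocadherin cluster, whose overlapping transcripts bring the genes it overlapped to 23. No start site of a protein-coding gene lay inside it, and the nearest was that of PCDHGC5 at 8.82 kb. By position the strongest region of the set was therefore shared with many genes, and HDAC3 was the last to come within reach as the window grew to 50 kb.

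HDAC1 (ENSG00000116478.12, chromosome 1, 32292083 to 32333635), a deacetylase subunit of SIN3, NuRD and CoREST, had 2 short and dense regions. The stronger, at 32299125 to 32316903, had a signal of 19798 (rank 1303) over 17.8 kb and only 4 constituents. It lay wholly inside the gene, from intron 1 to intron 3 of the canonical transcript, and covered 42.8% of the body. Its signal per bp of 1.11 ranked 109 of 2615. The other, at 32269377 to 32286325, had a signal of 13609 (rank 2048), also with 4 constituents. It lay upstream of HDAC1, 5.76 kb from its start, over the 3′ part of LCK, a Src-family kinase best known from T cells. At 0.803 its signal per bp ranked 235. A further region lay just outside the window, 57.1 kb away over DCDC2B, TMEM234 and EIF3I, with a signal of 13309 (rank 2097).

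Among the corepressor subunits, regions covered most of the body of TBL1XR1 and SIN3A and a small part of that of NCOR1. Cover of most of a body was common: over the 3445 genes touched by a region its median was 72.9%. TBL1XR1 (ENSG00000177565.19, chromosome 3, 177019340 to 177228000), the WD40-repeat adaptor of NCoR complexes that is mutated in lymphoma, had 2 regions that together covered 90.0% of its body. The stronger, at 177027043 to 177188606, had a signal of 46659 (rank 264) over 162 kb and 53 constituents, the most of any in the set. It ran from intron 1 to intron 14 of the 16-exon canonical transcript. The other, at 177201687 to 177301650, had a signal of 15094 (rank 1808) over 99.96 kb and 20 constituents. It lay upstream of the canonical start, with 73.7% of its bases outside protein-coding genes. Both were long and not dense, with a signal per bp of 0.289 and 0.151 (ranks 1656 and 2572), and TBL1XR1 was the only protein-coding gene within 50 kb of either.

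SIN3A (ENSG00000169375.17, chromosome 15, 75369379 to 75455842), the scaffold on which HDAC1 is held, also had 2 regions, covering 83.7% of its body. The region at 75439375 to 75477065 held the SIN3A start and reached into PTPN9, a tyrosine phosphatase gene. Its signal was 26247 (rank 867) over 37.7 kb and 13 constituents, at 0.696 per bp (rank 337). The region at 75360645 to 75425317 ran from MAN2C1, an α-mannosidase gene whose start it held, to intron 2 of SIN3A. It had a signal of 19039 (rank 1368) over 64.7 kb and 18 constituents. Its signal per bp was 0.294 (rank 1620), so the region over the SIN3A start was the shorter and denser of the pair.

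NCOR1 (ENSG00000141027.23, chromosome 17, 16029065 to 16218185), the NCoR scaffold itself, had 1 region at 16189111 to 16268433, with a signal of 19378 (rank 1337) over 79.3 kb and 18 constituents. It held the start sites of NCOR1 and of the divergent neighbour PIGL, an enzyme gene of GPI anchor synthesis. Only 36.7% of the region lay in NCOR1, where it reached intron 2 and covered 15.4% of the body. At 0.244 its signal per bp ranked 1971.

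**Figure D3:**
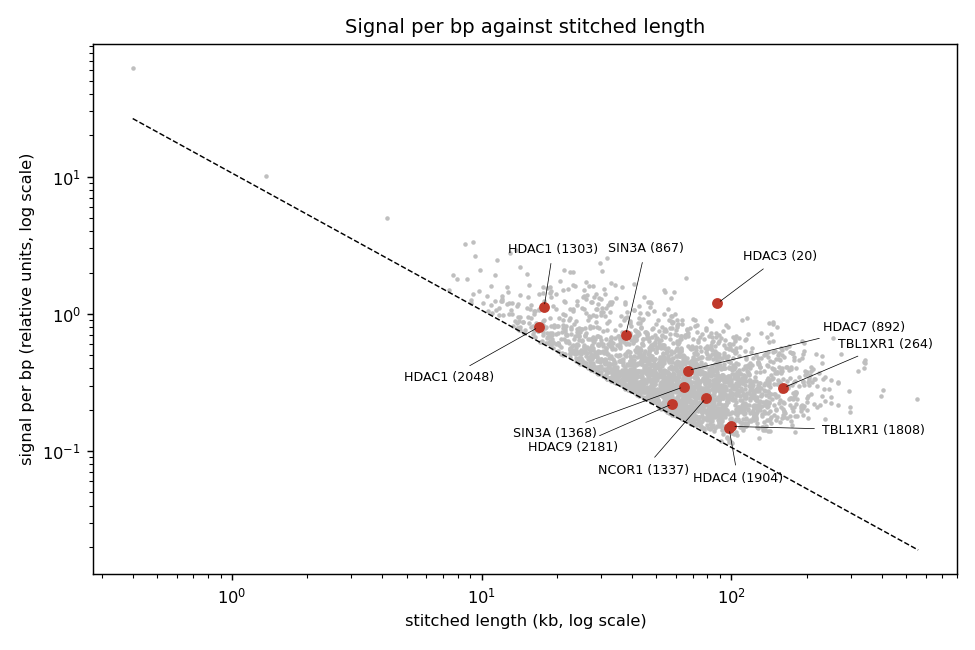
Signal per bp (log scale, relative units) against stitched length in kb (log scale) for all 2615 regions (grey) and the 11 regions near the 9 genes (red, with rank by signal), with the dashed line showing the density a region of each length needs to pass the cutoff. HDAC1 (1.11 and 0.803) and SIN3A (0.696) are short and dense, HDAC4 (0.147) and the rank 1808 region of TBL1XR1 (0.151) are long and thin, and HDAC3 is both long and dense (1.19).

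The class IIa genes ranged from rank 892 at HDAC7 to ranks 1904 and 2181 at HDAC4 and HDAC9, with no region at HDAC5. HDAC7 (ENSG00000061273.18, chromosome 12, 47782722 to 47833132), the class IIa enzyme best known from lymphocytes, had the strongest, at 47833844 to 47900630, with a signal of 25766 (rank 892) over 66.8 kb and 16 constituents. The region began 711 bp beyond the longest annotated HDAC7 transcript and 13.9 kb upstream of the canonical start, and the only gene it overlapped was VDR, which encodes the vitamin D receptor. Its signal per bp was 0.386 (rank 1067). No VDR start lay inside it, the nearest being 4.36 kb away.

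HDAC4 (ENSG00000068024.18, chromosome 2, 239048168 to 239401654) had 1 region at 239053922 to 239151761, with a signal of 14373 (rank 1904) over 97.8 kb and 22 constituents. It lay in the 3′ part of the gene, from intron 7 to intron 25 of the canonical transcript, and covered 18 of its 27 exons, 249 kb from the start. At 0.147 its signal per bp ranked 2583 of 2615. HDAC9 (ENSG00000048052.25, chromosome 7, 18086949 to 19002416), the longest gene of the set at 915 kb, had 1 region at 18536009 to 18594103, with a signal of 12827 (rank 2181) over 58.1 kb and 19 constituents. This was 1.21 times the cutoff, the lowest of the 11. It lay 40.3 kb past the canonical start, from intron 2 to intron 6, and covered 6.35% of the body. The region was isolated: the nearest other region was 3581 kb away, against a median of 61.7 kb over the table and place 50 of 2615 in the order from most to least isolated.

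HDAC5 (ENSG00000108840.16, chromosome 17, 44076746 to 44123702) had no region within 50 kb or within 100 kb. The nearest, at 44236825 to 44295499, was 113 kb upstream over SLC4A1, the erythroid anion exchanger gene, with a signal of 10726 (rank 2594), 1.01 times the cutoff. Regions under the cutoff were not analysed here, so a weaker cluster nearer to HDAC5 was not detectable in this table.

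At the genes with 2 regions, the pairs were set apart by little more than the stitching distance. ROSE, as run here, left out peaks within 2500 bp of a start site and joined the rest up to a set distance, and the smallest gap between 2 regions in the table was 12502 bp. The gap was 12799 bp at HDAC1, 13080 bp at TBL1XR1 and 14057 bp at SIN3A. The canonical start of HDAC1 lay in the first of these gaps and that of TBL1XR1 in the second, while the SIN3A gap held no start. Of all 2615 regions, 13.2% had a neighbour under 15 kb away, as did 6 of the 11 here, and 36.7% of the 180 gaps of that size held a protein-coding start, as did 2 of the 3 here. With regions under 15 kb apart joined, a setting chosen after seeing the data, the table shrank to 2435 regions and each gene had 1. The summed signal became 61754 for TBL1XR1 (rank 171), 45287 for SIN3A (rank 349) and 33407 for HDAC1 (rank 584), without what the gaps themselves held. The ranks of these 3 genes thus changed with the joining distance.

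The promoters at the canonical starts of HDAC1 and TBL1XR1, which lie in these gaps, are shown with 1 of HDAC9 that held an octamer and an AP-1 match and, like the window above, was picked after the sequences had been seen. They are the 250 bases before a RefSeq start on the gene's strand (GRCh38.p14).
HDAC1, chr1:32291833-32292082, plus strand, in the gap between ranks 2048 and 1303: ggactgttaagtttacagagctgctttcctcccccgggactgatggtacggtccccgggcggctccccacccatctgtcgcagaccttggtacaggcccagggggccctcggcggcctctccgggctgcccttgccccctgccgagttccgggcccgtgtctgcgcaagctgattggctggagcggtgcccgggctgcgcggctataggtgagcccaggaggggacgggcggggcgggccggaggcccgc
TBL1XR1, chr3:177197483-177197732, minus strand, in the gap between ranks 264 and 1808: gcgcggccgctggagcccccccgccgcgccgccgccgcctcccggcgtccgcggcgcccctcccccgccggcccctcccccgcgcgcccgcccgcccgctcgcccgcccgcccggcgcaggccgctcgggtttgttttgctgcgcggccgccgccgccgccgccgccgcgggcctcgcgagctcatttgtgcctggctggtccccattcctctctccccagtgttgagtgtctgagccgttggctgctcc
HDAC9, chr7:18495460-18495709, plus strand, upstream of the rank 2181 region: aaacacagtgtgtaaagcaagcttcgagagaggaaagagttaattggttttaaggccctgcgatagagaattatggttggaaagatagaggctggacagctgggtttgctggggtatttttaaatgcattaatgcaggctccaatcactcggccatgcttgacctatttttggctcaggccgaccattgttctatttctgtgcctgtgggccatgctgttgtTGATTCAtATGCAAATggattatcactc

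These promoters of HDAC1 and TBL1XR1 were GC-rich (71.6% and 81.2%) and held none of the letters searched. A second TBL1XR1 start in the same gap, with its promoter at chr3:177196479-177196728 (GC 66.4%), is not printed because 22 of its bases are exonic, and it held a match to CTATTTNTA and to TGANTCA. That of HDAC9 had a GC content of 44% and held TGANTCA 1 base before ATGCAAAT, letters found in 6.54% and 1.63% of 34961 promoters, respectively. The table of promoters gave 19 starts for 8 of the 9 genes, some of which overlap. Among these, TGANTCA was found at 3 (HDAC9 and TBL1XR1), ATGCAAAT at 2 (both HDAC9), TTCNNNGAA at 2 (HDAC4 and SIN3A, 6.57% of all promoters), TGTGGTT at 2 (HDAC4 and NCOR1, 3.65%), CTATTTNTA at 1 (TBL1XR1, 1.15%), GAGGAAGT at 1 (HDAC4, 2.17%), and TTCCTNGAA and TAATCCCAG at 0 (1.36% and 0.154%).

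Other genes of the same complexes were then counted, with the 9 genes included where they belong. Of the class I enzymes, 2 of 4 had a region within 50 kb, against the background of 30.7%, and HDAC2 and HDAC8 did not. Of class IIa 3 of 4 had one, and of classes IIb and IV 2 of 3, HDAC10 (rank 2525) and HDAC11 (rank 2150). The SIN3 list gave 10 of 15, led by the histone-binding protein gene RBBP4 (rank 118) and by SAP130 (rank 344). The SAP130 region lay 35.75 kb from the gene, over POLR2D and AMMECR1L. The NuRD list gave 7 of 13, led by GATAD2B (rank 75), and the CoREST list 7 of 9, led by RCOR2 (rank 397). KDM1A, the demethylase of CoREST, had none. BCL6 itself had a region of rank 1468 (signal 18072) 13.2 kb from the gene, and its list gave 4 of 8, with BCOR (rank 1715) and KDM2B (rank 248). With the gene body alone, the counts were 1 for class I, 2 for class IIa and 1 for classes IIb and IV. They were then 6 for SIN3, 7 for NuRD, 5 for CoREST and 2 for the BCL6 list, against 17.3% of all protein-coding genes. Lists of a few genes that share members, such as HDAC1 and HDAC2, cannot be ordered by these counts.

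**Figure D4:**
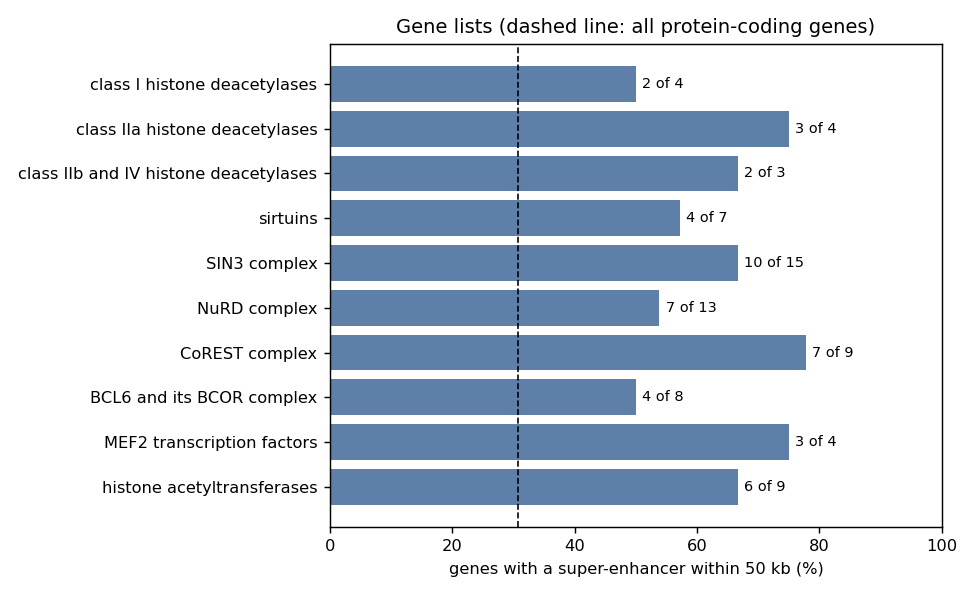
Share of genes with a super-enhancer within 50 kb (percent) in 10 lists of deacetylases, corepressor complexes and their partners, with the count beside each bar and the share over all protein-coding genes, 30.7%, as a dashed line. The shares run from 50% (class I enzymes, and BCL6 with its BCOR complex) to 77.8% (CoREST).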

How the data were processed

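H3K27ac, H3K4me1 and H3K4me3 were profiled by CUT&RUN in 24 OCI-Ly7 samples in 12 groups of 2. Per the methods of the study, the authors processed reads with nf-core cutandrun (hg38 per the labels) and IgG controls, and normalized depth to promoter reads. They took peaks from SEACR, summits from MACS2 and super-enhancers from ROSE. The deposited signal is that of ROSE per stitched region of the pooled WT H3K27ac libraries. Whether the depth scaling entered it is not given in the sources used here, so it was used only within the table, and per bp after division by the stop minus start distance.

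Gene bodies, canonical transcripts and start sites were taken from GENCODE version 44 (hg38), and sequences from hg38 and the RefSeq promoter table. All 9 members were named with every region within 50 kb, or the nearest where there was none. Other genes were named where a member region lay within 50 kb or as 1 of the 3 highest-ranked of a list, and the remaining list genes after their values were seen. The members and lists were chosen with earlier results of these data known. With 1 pooled value per region no test was run, and counts are given beside the share over all protein-coding genes. Edge windows had the length that divides the summed constituent length without remainder in 2609 of 2615 regions. The overlap count and the letter search were tested on simulated data. Work was done in Python 3.11.15 with pandas 2.3.3, numpy 2.4.6 and matplotlib 3.10.9. Some sequences and 1 list of complex subunits are not reported here.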

Additional observations from a re-analysis of the deposited data

How the results depend on the processing

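The count of members with a region was 8. It was 6 with the gene body alone, 7 with an extension of 25 kb and 8 with 100 kb. It was 8 with the canonical transcript, 6 with 50 kb around the canonical start and 8 with regions under 15 kb apart joined. Among the 1307 regions with the highest signal it was 5, with HDAC4, HDAC9 and NCOR1 lost. The genes of the 11 lists with a region went from 47 of 73 to 31 with the body alone and 28 among the 1307 regions, and the share of all protein-coding genes from 30.7% to 17.3% and 16.8%, since these settings count fewer regions by construction. The share of all protein-coding genes with a region was 25% with an extension of 25 kb and 39.7% with 100 kb. It was 30.3% with the canonical transcript and 26% with 50 kb around the canonical start. Member counts alone therefore do not show how far the result depends on the window. The median over members of their highest signal was 22782. It became 19588 with the body alone, where HDAC3 and HDAC7 dropped out, 19798 with 25 kb, where HDAC3 dropped out, and 29586 with close regions joined. Matches to TTCNNNGAA fell from 1 to 0 in the central part of the edge windows. The median rank of 1337 became 1620 by signal per bp and 1626 by signal per constituent. Of 113 alternative values, 91 stayed near their main value and 22 moved. These include the highest signal near each single gene, which repeats the same deposited value wherever its region stays within the window. A gene whose region dropped out gave no value there, so the tally does not measure stability. For the main results alone, 17 of 26 alternative values stayed near and 9 moved.

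No paired analysis was possible because both WT libraries share 1 column. Leaving out a replicate could not be run either, and the error of a rank or of the cutoff is unknown. Of the 11 regions, that of HDAC9, at 1.21 times the cutoff, lay nearest to it.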

Other observations

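The enzymes and factors that the deacetylases oppose or bind had regions as well. Of 9 histone acetyltransferase genes, 6 had a super-enhancer within 50 kb, against 30.7% of all protein-coding genes. The count rested on the window: it was 4 with 25 kb and 3 with the body alone, against 25% and 17.3% of all genes. KAT7 and KAT8 lay 47.4 and 46.5 kb from their regions. CREBBP, which is mutated in the C and CK clones, had 2, the stronger with a signal of 66875 over 204 kb and 70 constituents, and its paralog EP300 had 1 of rank 1716 with a signal of 15824 over 82.7 kb. KAT2B, KAT5 and KAT6A had none. Of the 4 MEF2 genes, which encode the partners of class IIa deacetylases, MEF2B (rank 1255), MEF2C (rank 1075) and MEF2D (rank 1245) had a region and MEF2A did not. Of the 7 sirtuins, the NAD-dependent deacetylases, SIRT5 (rank 192), SIRT7 (rank 752), SIRT2 (rank 830) and SIRT3 had a region. For SIRT5 the region of rank 192 lay 25.1 kb away over GFOD1, and a weaker region overlapped the gene. The SIRT7 region lay 32.0 kb away over ARHGDIA. Of the 64 list genes outside the 9 members, 39 (60.9%) had a region, and their median length was 45.4 kb against 27.5 kb over all protein-coding genes.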
